A study of Mus musculus with 23 samples.

Results

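The genes described here are the splicing factors, heterogeneous nuclear ribonucleoproteins and DEAD-box RNA helicases on the array. A gene was a member when a probe carried its symbol alone and the symbol began with Srsf, Snrp, Hnrnp, Sf3, Prpf, U2af, Lsm followed by a digit, or Ddx. This rule used names and no measured value, and it found 86 genes, read by 116 probes, among the 8683 genes measured. The families held 8 Srsf, 10 Snrp, 16 Hnrnp, 9 Sf3, 10 Prpf, 7 Lsm and 26 Ddx genes. No probe carried a U2af symbol alone, and 7 further probes that name a family gene together with another gene were not counted as members.

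The cells were A404, which were cloned from P19, an embryonal carcinoma line of the mouse. As background, puromycin resistance in A404 is driven by the promoter of Acta2, which encodes smooth muscle alpha-actin, so puromycin selects cells in which that promoter is active, and all groups share this 1 clone. The Control group (n = 6 arrays) was undifferentiated cells. The RA48 (n = 5) and RA96 (n = 6) groups had received all-trans retinoic acid at 1 µmol/L for 48 h and 96 h, and Puromycin (n = 6) had 96 h of retinoic acid followed by 48 h of puromycin. Whether retinoic acid was still present during selection is not stated. Control cells were collected near confluence and retinoic acid was started at about 30% confluence, so density and treatment cannot be told apart. Each array compared Cy5-labelled RNA from 5 to 6 plates with Cy3-labelled RNA pooled from whole mouse embryos of day 17.5. Values below are log2 ratios of cell RNA over embryo RNA, a difference of 1 being a factor of 2, and they give no level that can be set against another gene. Nothing in the labels tells whether replicates came from separate cultures, and p-values therefore measure only how arrays vary, which may be technical.

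Introns are removed from pre-mRNA by the spliceosome, which is assembled from small nuclear RNAs held in rings of Sm or Lsm proteins, from proteins particular to each small nuclear ribonucleoprotein (snRNP), and from the SF3A and SF3B complexes that seat the U2 particle on the branch point. SR proteins, encoded by the Srsf genes, bind exons and recruit the machinery, while hnRNP proteins coat nascent RNA and often act against them, so the balance of both helps set which exons are kept. DEAD-box helicases remodel RNA and RNA-protein complexes in splicing, ribosome assembly, export, translation and decay. Smooth muscle differentiation is known for a set of muscle isoforms made by alternative splicing, such as those of tropomyosin and vinculin.

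No value was missing on the 23 arrays. Marker genes followed the group labels in the mean: the mean ratio of 4 smooth muscle markers lay between -3.31 and -1.77 in Control and between 0.49 and 1.18 in Puromycin, and that of 5 markers of undifferentiated cells between 2.71 and 3.37 in Control and between -0.20 and 0.068 in Puromycin. Singly, 3 of the 4 were called higher and 4 of the 5 lower in Puromycin versus Control. The remaining 1 of each list was not called. Within groups the arrays fell into 2 sets, of 11 and 12 arrays, that no label names; the first principal component of deviations from the group means parted them and held 48.9% of the variance within groups. The first array set held replicates 1 to 3 of Control, RA48 and Puromycin and replicates 1 and 3 of RA96. Both sets held all 4 groups, so each comparison could be repeated inside a set. The 2 sets took unequal shares of RA48 and of RA96, so every comparison with either group carries part of the difference between them. The imbalance was largest in RA96 versus RA48, and only Puromycin versus Control was balanced.

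Most members had their highest mean in undifferentiated cells, and calls against Control were mostly downward from 48 h of retinoic acid on. In RA48 versus Control, limma called 27 of the 86 members lower and 2 higher at an adjusted p under 0.05, against 16.4% of all genes called lower and 18.0% called higher (34.4% in all). In RA96 versus Control 44 members were lower and 3 higher (all genes 27.6% and 23.9%, 51.5% in all), and in Puromycin versus Control 41 were lower and 4 higher (all genes 28.6% and 24.6%, 53.2% in all). These 3 comparisons share the Control arrays. The median change over the members was -0.28, -0.36 and -0.36, beside -0.020, -0.050 and -0.064 over all genes. By direction alone, 72 of 86 members (83.7%) were below 0 at 48 h, where 52.0% of genes were. The highest of the 4 group means was that of Control for 65 members (75.6%) and for 39.4% of all genes. Against the embryo, 74 members (86.0%) had a Control mean above 0, compared with 49.9% of genes. That share rests on the direction read from the dyes and on a centring that is not stated; with the sign turned 12 members and 50.1% of genes would be above 0.

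Taken array by array, the median over the 86 members ran from 0.76 to 1.21 in Control, from 0.43 to 0.83 in RA48, from 0.40 to 0.70 in RA96 and from 0.41 to 0.76 in Puromycin. Control and RA96 ranges did not meet, while the lowest Control array lay below the highest arrays of RA48 and of Puromycin. The median over all genes stayed between -0.069 and 0.10 on every array. In bulk RNA a lower ratio from fewer cells that express a gene and one from less RNA per cell cannot be told apart. Over the whole series 54 members were called lower in at least 1 comparison, 9 were called higher and 3 did both, and 26 were called in none, where 39.8%, 34.4%, 7.14% and 32.9% of all genes were. The F test over the 4 groups called 50 members (58.1%), a share like the 60.8% of all genes.

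**Figure D1:**
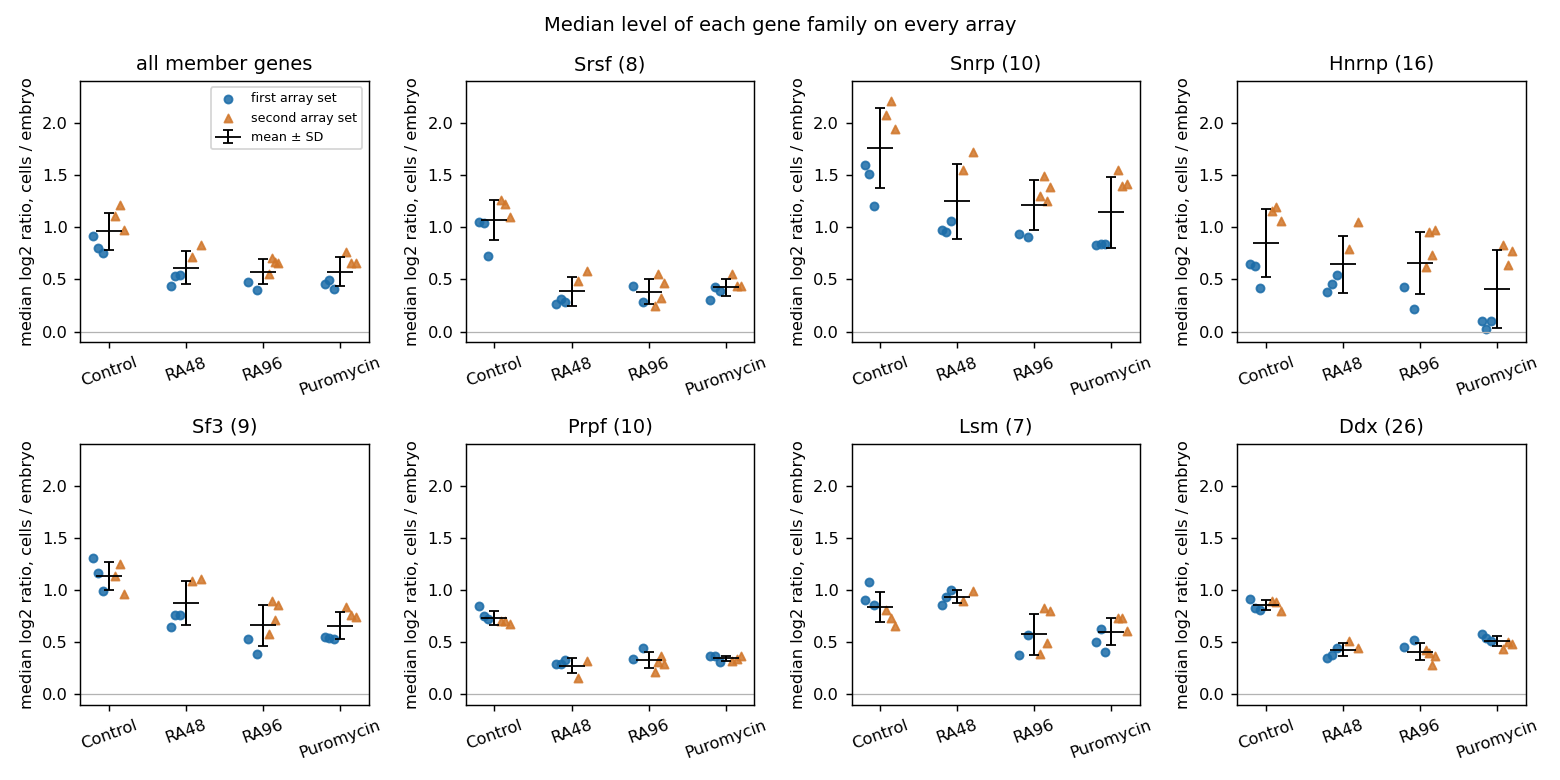
Each point is the median log2 ratio (cell over embryo, y axis) of a family on 1 array, by group on the x axis; the panels show all 86 members and each of the 7 families, marker shapes give the 2 array sets, and bars show mean ± SD over arrays. The Srsf median lay from 0.73 to 1.26 in Control and no higher than 0.58 on the arrays of the other groups; the Ddx and Prpf medians also parted Control from the rest, and the Lsm median at 48 h lay within the Control range.

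The fall was seen inside both array sets. In the first array set alone limma called 45 members lower in RA48 versus Control (background 22.5% of genes), and in the second 32 (background 20.9%). For RA96 versus Control the counts were 48 and 54 (backgrounds 31.4% and 31.5%), and for Puromycin versus Control 52 and 50 (backgrounds 35.7% and 30.3%). Members called lower in both sets numbered 28, 39 and 41 (backgrounds 13.7%, 22.6% and 22.8%). Because the sets were read from the same deviations, the p-values inside a set are too small. When arrays sharing a group and a set were instead handled as repeats of each other (a random block in limma), 7 members stayed lower at 48 h (background 5.12%), 13 in RA96 versus Control (background 10.0%) and 19 in Puromycin versus Control (background 11.6%). The 7 at 48 h were Srsf6, Srsf10, Ddx10, Ddx18, Ddx20, Ddx21 and Ddx39a. The 13 at 96 h were these 7 with Srsf2, Sf3b3, Snrpa1, Prpf38b, Ddx25 and Ddx27.

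**Figure D2:**
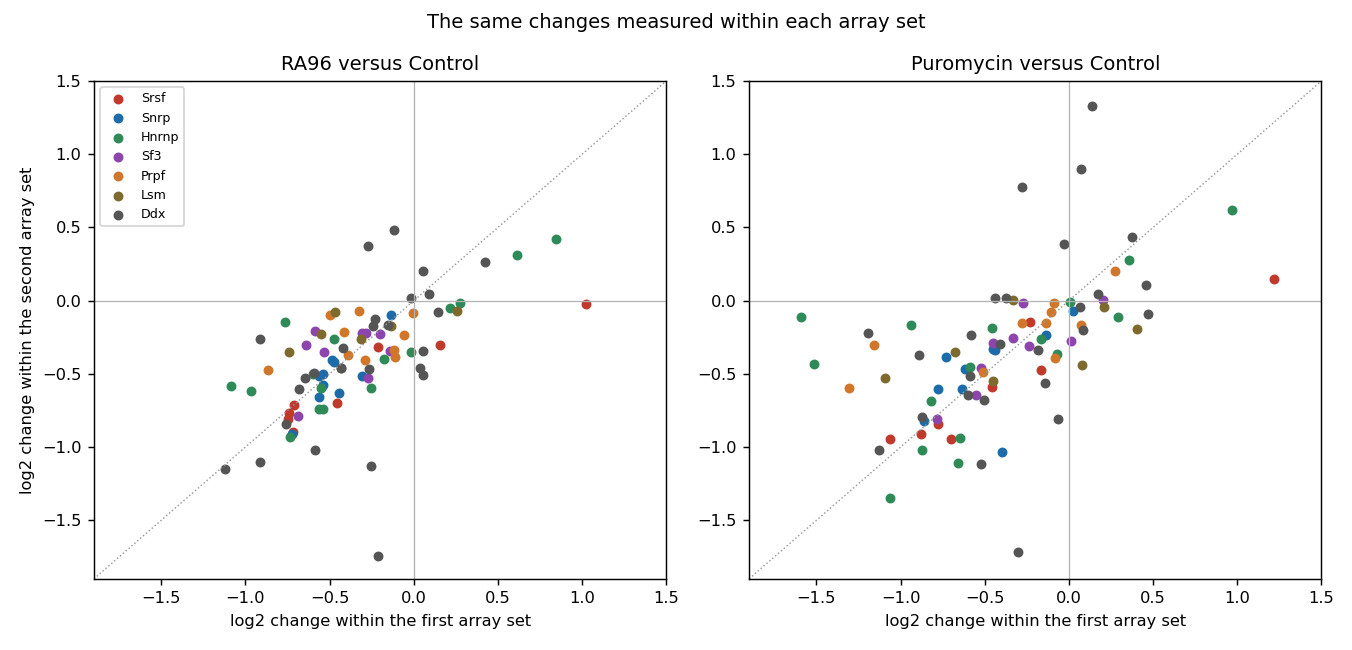
Each point is 1 member: its log2 change in the first array set (x axis) against that in the second (y axis), for RA96 versus Control and for Puromycin versus Control, with colours for the family and the diagonal marking equal change. Most points lie below 0 on both axes (69 and 60 of 86); Ddx46 lies far below the diagonal and Srsf12 far to the right of it.

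The DNA before the start sites of these genes was read from RefSeq's mouse promoters (build GRCm38.p6), which gave 94 windows for 75 of the 86 members, each taken as the 250 bases before a start. Letters of 3 motifs were searched on both strands. CCGGAAG, the core bound by ETS factors, stood in 23 windows (24.5%), compared with 12.7% of windows of all genes on the array and 6.91% of all windows. CACGTG, the E-box of MYC and related factors, stood in 8.51% of member windows and 8.65% of those of array genes (6.02% of all), and TATAAA in 6.38% and 6.63% (12.4% of all). None of the 3 overlaps another by its letters. A match describes the letters and shows no binding. Shown 5′ to 3′ on the gene's strand, with matches in capitals, are an SF3B subunit and an SR protein that fell, an hnRNP gene that rose, and the helicase with the largest fall at 96 h: Sf3b3 (chr8:110846804-110847053, minus strand, an ETS core and a TATAAA), Srsf2 (chr11:116853095-116853344, minus strand, a TATAAA), Hnrnpa3 (chr2:75659009-75659258, plus strand, an E-box) and Ddx18 (chr1:121567981-121568230, minus strand, no match).
Sf3b3: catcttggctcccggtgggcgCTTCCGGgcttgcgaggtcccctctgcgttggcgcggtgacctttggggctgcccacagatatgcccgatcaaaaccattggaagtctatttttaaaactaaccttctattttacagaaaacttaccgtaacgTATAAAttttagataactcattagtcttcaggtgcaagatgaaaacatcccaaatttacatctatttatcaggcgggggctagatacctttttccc
Srsf2: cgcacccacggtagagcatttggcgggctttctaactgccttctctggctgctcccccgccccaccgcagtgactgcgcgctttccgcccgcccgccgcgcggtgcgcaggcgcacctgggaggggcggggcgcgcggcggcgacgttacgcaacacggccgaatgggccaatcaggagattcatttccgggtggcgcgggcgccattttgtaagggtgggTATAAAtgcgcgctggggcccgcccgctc
Hnrnpa3: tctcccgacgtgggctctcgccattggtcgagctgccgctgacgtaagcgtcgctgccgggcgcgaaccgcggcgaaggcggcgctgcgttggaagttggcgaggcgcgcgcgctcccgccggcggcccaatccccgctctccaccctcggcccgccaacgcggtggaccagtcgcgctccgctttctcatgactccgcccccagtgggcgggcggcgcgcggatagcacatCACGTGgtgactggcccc
Ddx18: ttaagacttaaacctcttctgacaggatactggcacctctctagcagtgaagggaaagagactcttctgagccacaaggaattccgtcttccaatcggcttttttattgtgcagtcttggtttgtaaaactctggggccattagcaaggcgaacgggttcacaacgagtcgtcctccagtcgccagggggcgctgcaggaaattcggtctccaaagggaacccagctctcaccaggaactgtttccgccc

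All 10 Snrp genes were below 0 in RA96 versus Control, with a median change of -0.43, and 6 passed the test: Snrpa, Snrpa1, Snrpb, Snrpb2, Snrpd1 and Snrpg. At 48 h 3 were called lower (Snrpa1, Snrpb2 and Snrpd1, median -0.48), and in Puromycin versus Control 5 (Snrpa, Snrpa1, Snrpb2, Snrpf and Snrpg, median -0.55). Inside the array sets 8 and 9 of the 10 were called lower in RA96 versus Control, by the p-values that are too small, whereas the random block left 0, 1 and 1 called lower in RA48, RA96 and Puromycin versus Control. With all arrays 16.4%, 27.6% and 28.6% of all genes were called lower in these comparisons, to be read beside 3, 6 and 5 of 10. Under the random block 5.12%, 10.0% and 11.6% of all genes were called lower, so the counts of 1 were near that share. Snrpc, Snrpd2 and Snrpe were called in no comparison.

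Snrpa encodes the A protein of U1, which binds a stem-loop of U1 RNA. Its ratio ran from 0.91 to 1.52 in Control (median 1.33), 0.83, 0.90, 0.97, 1.12 and 1.24 in RA48, from 0.52 to 1.02 in RA96 (median 0.79) and from 0.59 to 0.98 in Puromycin (median 0.75). Control and the later groups overlapped, since the lowest Control array, of the first set, lay within the RA96 range. Snrpa changed by -0.51 ± 0.11 (adjusted p = 0.000594) in RA96 versus Control and -0.54 ± 0.11 (adjusted p = 0.00034) in Puromycin versus Control. For Snrpa1, the A' protein of U2, arrays ran from 2.45 to 2.92 in Control (median 2.76) and stood above all arrays of RA48 (1.91, 1.91, 1.91, 2.21 and 2.22) and of RA96 (highest 2.21). Its fall at 48 h was 0.67 ± 0.097 (adjusted p = 1.24e-05), and at the end point 0.39 ± 0.093 (adjusted p = 0.00162).

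Of the Sm ring, which is loaded on each snRNA by the SMN complex, Snrpb fell by 0.42 ± 0.11 (adjusted p = 0.00264) at 96 h and was at -0.18 ± 0.11 (adjusted p = 0.163) after selection. Snrpd1 fell by 0.56 ± 0.18 (adjusted p = 0.0267) at 48 h, but without any 1 of Control replicates 4 and 5 or RA48 replicates 1, 2 and 3 its adjusted p rose to between 0.0575 and 0.0845, and by 0.44 ± 0.18 (adjusted p = 0.0438) at 96 h, where without any 1 of Control replicates 4, 5 and 6 or RA96 replicates 1, 2, 3 and 5 its adjusted p rose to between 0.0574 and 0.101. Snrpf split by array set: its RA48 arrays stood at 0.24, 0.29, 0.31, 1.54 and 1.54, the upper values being those of the second set. Its change in Puromycin versus Control was -0.84 ± 0.30 (adjusted p = 0.0277), -0.86 in the first array set and -0.82 in the second, and without any 1 of Control replicates 4, 5 and 6 or Puromycin replicates 1, 2 and 3 its adjusted p rose to between 0.0571 and 0.0684.

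Among the 7 Lsm genes 1, Lsm8, was called lower at 48 h (family median -0.12), 4 in RA96 versus Control (Lsm2, Lsm4, Lsm8 and Lsm14b, median -0.25) and 3 in Puromycin versus Control (Lsm2, Lsm4 and Lsm8, median -0.18). In share these were 14.3%, 57.1% and 42.9% of the family, and the first was near the 16.4% of all genes called lower at 48 h. The later shares of all genes were 27.6% and 28.6%. The random block left 0, 0 and 1 (all genes 5.12%, 10.0% and 11.6%), the last being Lsm2. Lsm2, Lsm4 and Lsm8 belong to the ring that holds U6 RNA, and Lsm2 and Lsm4 also sit in the cytoplasmic ring of mRNA decay. Lsm2 ran from 1.33 to 1.70 in Control (median 1.63), 1.34, 1.35, 1.37, 1.54 and 1.64 in RA48, from 0.81 to 1.28 in RA96 (median 1.17) and from 0.41 to 1.07 in Puromycin (median 0.76). Control and RA48 overlapped, and every RA96 and Puromycin array was below every Control array. Its change was -0.12 ± 0.13 (adjusted p = 0.588) at 48 h, -0.48 ± 0.13 (adjusted p = 0.00373) at 96 h and -0.81 ± 0.13 (adjusted p = 1.92e-05) after selection. Lsm8 had fallen by 0.50 ± 0.086 (adjusted p = 9.95e-05) at 48 h, without overlap with Control, and Lsm4 by 0.51 ± 0.10 (adjusted p = 0.000305) after selection.

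Lsm10, part of the U7 particle that processes histone mRNA, and Lsm14b, a partner of translational repression, were higher at 48 h than at 96 h. Lsm10 fell by 0.38 ± 0.10 (adjusted p = 0.0129) between these times and Lsm14b by 0.47 ± 0.10 (adjusted p = 0.00257). Lsm14b was at 0.90, 0.99, 1.03, 1.03 and 1.17 in RA48 and ran from 0.29 to 0.83 in RA96 (median 0.53), with no overlap. The Lsm14b fall from Control to RA96, 0.25 ± 0.095 (adjusted p = 0.034), did not hold throughout, as without any 1 of Control replicates 1, 2 and 3 or RA96 replicates 1, 2 and 5 its adjusted p rose to between 0.057 and 0.0954. Lsm7 and Lsm14a were called in no comparison.

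SF3A and SF3B subunits shifted down by modest amounts. All 9 Sf3 genes were below 0 in RA48 versus Control and in RA96 versus Control, with 4 and 5 called lower (medians -0.22 and -0.30), and 6 were called lower in Puromycin versus Control (median -0.29). The random block left 0, 1 and 1, the later ones being Sf3b3. Shares of all genes called lower were 16.4%, 27.6% and 28.6%, and 5.12%, 10.0% and 11.6% with the random block. The later random-block counts, 1 of 9, were thus near the share of all genes. The 3 subunits of SF3A were all called at 96 h: Sf3a1 -0.26 ± 0.056 (adjusted p = 0.000709), Sf3a2 -0.44 ± 0.14 (adjusted p = 0.0116) and Sf3a3 -0.47 ± 0.10 (adjusted p = 0.000863). Sf3b1, the subunit that grips the branch point helix, fell by 0.35 ± 0.11 (adjusted p = 0.0226) at 48 h, although without any 1 of Control replicates 4 and 5 or RA48 replicates 1, 2 and 3 its adjusted p rose to between 0.0534 and 0.0726, and was not called at 96 h (-0.22 ± 0.11 (adjusted p = 0.105)) or after selection (-0.13 ± 0.11 (adjusted p = 0.338)). Sf3b4 was called in no comparison.

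Sf3b3, a scaffold subunit of SF3B, fell furthest in this family. Its arrays ran from 0.99 to 1.73 in Control (median 1.35), 0.65, 0.76, 0.76, 1.12 and 1.17 in RA48, from 0.39 to 0.95 in RA96 (median 0.71) and from 0.33 to 0.83 in Puromycin (median 0.59). Every RA96 and Puromycin array lay below every Control array, while RA48 overlapped Control. The fall was 0.68 ± 0.14 (adjusted p = 0.000393) at 96 h and 0.80 ± 0.14 (adjusted p = 6.97e-05) after selection, -0.78 in the first array set and -0.81 in the second. At 48 h it was 0.48 ± 0.15 (adjusted p = 0.0166), and without RA48 replicate 1 its adjusted p rose to 0.0534. Smaller calls in Puromycin versus Control were those of Sf3a3 (-0.27 ± 0.10 (adjusted p = 0.0374)), Sf3b2 (-0.60 ± 0.22 (adjusted p = 0.0336)) and Sf3b5 (-0.37 ± 0.14 (adjusted p = 0.0341)). Each was lost when any 1 of several arrays was left out. For Sf3a3, without any 1 of Control replicates 1, 2 and 3 or Puromycin replicates 4, 5 and 6 its adjusted p rose to between 0.0519 and 0.0998.

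Of the 10 Prpf genes, which encode proteins of the U4/U6.U5 tri-snRNP and of the activated spliceosome, 4 were called lower at 48 h (Prpf3, Prpf18, Prpf38a and Prpf38b, median -0.28), 5 in RA96 versus Control (these 4 with Prpf6, median -0.25) and 2 in Puromycin versus Control (Prpf18 and Prpf38b, median -0.18), the last a share below that of all genes. Over all arrays 16.4%, 27.6% and 28.6% of all genes were called lower. With the random block the counts were 0, 1 and 1, the later ones being Prpf38b. The shares of all genes were then 5.12%, 10.0% and 11.6%, so the counts of 1 were near them. At 48 h limma called none higher (0 at an unadjusted p under 0.05). Prpf38b, a relative of a factor needed for activation, ran from 0.76 to 0.94 in Control (median 0.83), -0.0090, 0.22, 0.30, 0.32 and 0.44 in RA48, from -0.062 to 0.51 in RA96 (median 0.26) and from -0.56 to 0.32 in Puromycin (median -0.12). Every array of the 3 later groups was below every Control array. It fell by 0.58 ± 0.14 (adjusted p = 0.00388) at 48 h and by 0.95 ± 0.14 (adjusted p = 6.55e-06) at the end point, -1.30 in the first array set and -0.60 in the second. Prpf8, which forms the cavity around the catalytic RNA, was not called in any comparison (-0.096 ± 0.15 (adjusted p = 0.638) in RA96 versus Control), and neither was Prpf19, a ubiquitin ligase of the activated spliceosome (-0.16 ± 0.31 (adjusted p = 0.701)). Prpf4, Prpf4b and Prpf31 were likewise called in none of the 5. Both probes of Prpf18 were called lower at 48 h (-0.47 and -0.34), but the later calls rested on 1 of them. In RA96 versus Control they gave 0.050 (adjusted p = 0.701) and -0.55 (adjusted p = 0.000106). In Puromycin versus Control they gave -0.090 (adjusted p = 0.466) and -0.39 (adjusted p = 0.00265). The first probe rose by 0.52 (adjusted p = 0.000885) from 48 to 96 h.

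Of the Srsf genes 5 fell by 48 h and were lower at each later time. Srsf1, Srsf2, Srsf3, Srsf6 and Srsf10 were called lower than Control in all 3 later groups, which is 5 of the 8 Srsf genes each time (medians -0.53, -0.62 and -0.67), and the same 5 were called lower inside both array sets. With the random block 2, 3 and 5 were called lower. All genes had 16.4%, 27.6% and 28.6% called lower, and 5.12%, 10.0% and 11.6% with the random block. Of the other 3 Srsf genes, Srsf5 was at 0.0061 ± 0.23 (adjusted p = 0.989), Srsf11 at -0.24 ± 0.14 (adjusted p = 0.264) and Srsf12 at 0.39 ± 0.20 (adjusted p = 0.176) in RA48 versus Control. No Srsf gene was called between 48 and 96 h or on selection; at an unadjusted p under 0.05 the counts were 0 and 1. Srsf2, an SR protein that binds exonic enhancers, ran from 1.27 to 1.97 in Control (median 1.74), 0.93, 1.05, 1.13, 1.14 and 1.17 in RA48, from 0.70 to 1.32 in RA96 (median 0.98) and from 0.41 to 1.09 in Puromycin (median 0.64). RA48 and Puromycin arrays all lay below Control, and the RA96 range reached just above the lowest Control array. The fall was 0.61 ± 0.14 (adjusted p = 0.0022) at 48 h, 0.70 ± 0.13 (adjusted p = 0.000207) at 96 h and 1.00 ± 0.13 (adjusted p = 2.44e-06) after selection, a factor of 2.00 at the end.

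Srsf6 fell at 48 h and stayed low. Its ratio ran from 0.56 to 1.17 in Control (median 1.00), 0.049, 0.094, 0.14, 0.41 and 0.47 in RA48, from 0.020 to 0.43 in RA96 (median 0.14) and from 0.0023 to 0.40 in Puromycin (median 0.13). Every Control array was above every other array. It fell by 0.73 ± 0.12 (adjusted p = 3.6e-05) at 48 h and was -0.81 ± 0.11 (adjusted p = 2.72e-06) after selection. Srsf10, a splicing repressor of the family, was read by 5 probes, ran from 1.13 to 1.35 in Control (median 1.16) and never exceeded 0.75 in the other groups. Srsf3, the smallest SR protein, fell by 0.89 ± 0.14 (adjusted p = 1.91e-05) after selection, with no overlap. Srsf1, the founding SR protein, fell by 0.82 ± 0.23 (adjusted p = 0.00585) after selection. Its earlier calls were each lost when any 1 of several arrays was left out. At 48 h the change was -0.72 ± 0.24 (adjusted p = 0.0299). Without any 1 of Control replicates 4, 5 and 6 or RA48 replicates 1, 2 and 3 its adjusted p rose to between 0.0658 and 0.0818. The change then stayed between -0.65 and -0.62. At 96 h it was -0.65 ± 0.23 (adjusted p = 0.0255). Without any 1 of Control replicates 4, 5 and 6 or RA96 replicates 1 and 3 its adjusted p rose to between 0.0566 and 0.067.

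Srsf12, a relative of Srsf10, was the only Srsf gene called higher in any comparison, at 0.68 ± 0.19 (adjusted p = 0.00591) in Puromycin versus Control. It ran from -0.88 to -0.0056 in Control (median -0.48), -0.49, -0.15, 0.056, 0.11 and 0.13 in RA48, from -0.55 to 0.49 in RA96 (median -0.10) and from -0.14 to 0.60 in Puromycin (median 0.22). The groups overlapped, and the change was 1.22 in the first array set (adjusted p = 5.09e-06) and 0.15 in the second (adjusted p = 0.47), and no call was made in the second set alone. Srsf5 ran from -0.85 to 0.40 in Control (median -0.17) and from -0.93 to -0.064 in Puromycin (median -0.45) and was called in no comparison (-0.32 ± 0.22 (adjusted p = 0.252) in Puromycin versus Control), nor was Srsf11.

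**Figure D3:**
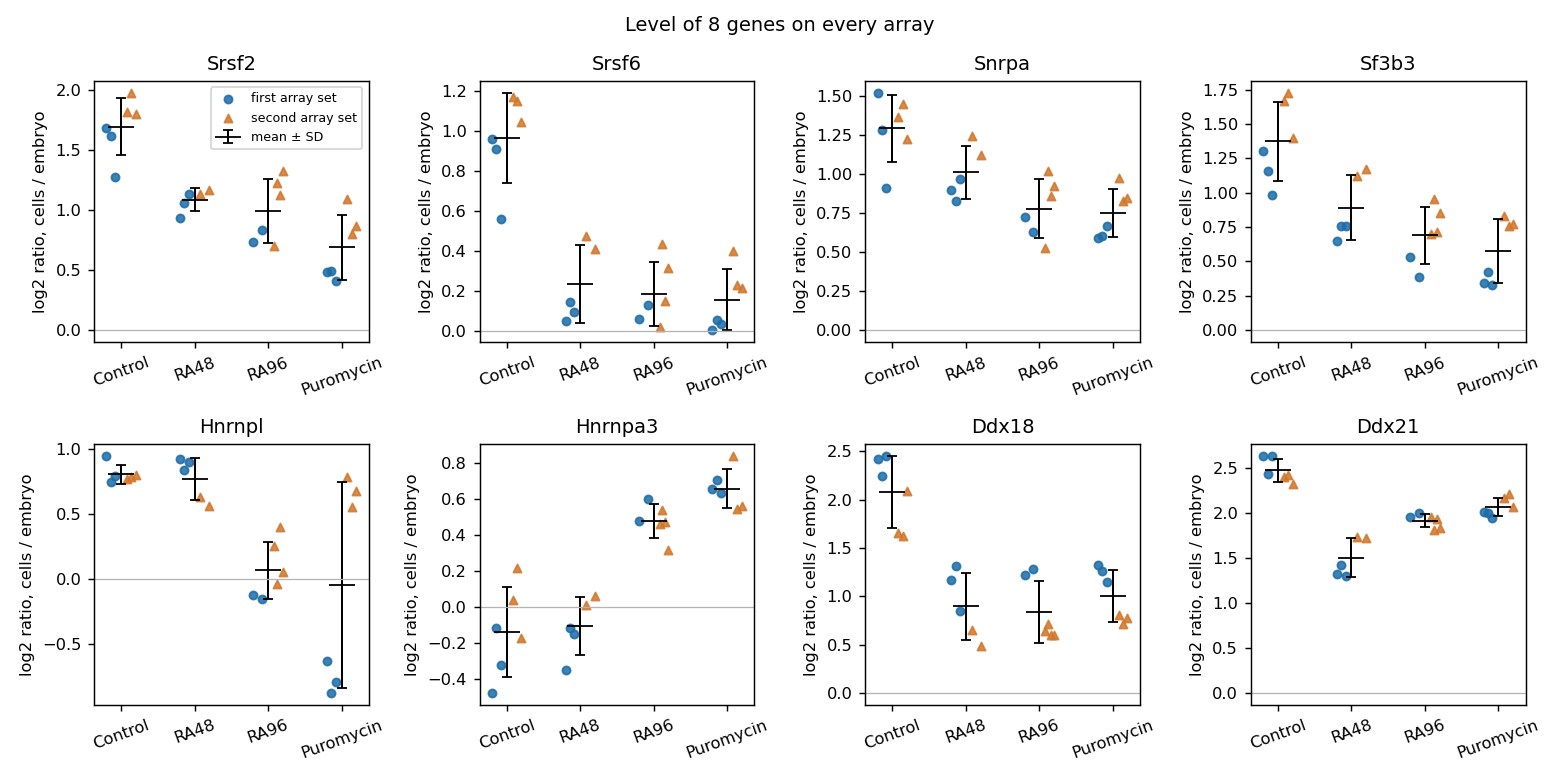
Log2 ratio (y axis) of Srsf2, Srsf6, Snrpa, Sf3b3, Hnrnpl, Hnrnpa3, Ddx18 and Ddx21 on every array, by group (x axis), with marker shapes for the 2 array sets and bars for mean ± SD. Ddx18 and Srsf6 drop at 48 h and stay down, Hnrnpl holds until 96 h, Hnrnpa3 rises at 96 h, and Ddx21 drops and then partly returns.

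Of the hnRNP genes 2 were called higher at 48 h, and 6 lower and 2 higher by 96 h. At 48 h limma called none of the 16 lower (1 at an unadjusted p under 0.05) and 2 higher, Hnrnpr and Hnrnpul2 (12.5% of the family), with a family median of -0.22. By 96 h 6 were lower than Control (Hnrnpa2b1, Hnrnpc, Hnrnpdl, Hnrnph2, Hnrnpl and Hnrnpll) and 2 higher (Hnrnpa3 and Hnrnph1), with a median of -0.38. After selection 9 were lower, Hnrnpa1, Hnrnpd and Hnrnpf having joined the same 6, and 1 was higher, Hnrnpa3 (median -0.54). Hnrnpab, Hnrnpk and Hnrnpu were called in no comparison. In RA96 versus Control 37.5% of the family were lower and 12.5% higher, beside 27.6% and 23.9% of all genes. The 8 of 16 called in either direction are near the 51.5% of all genes, whose calls also rose from 34.4% at 48 h. In Puromycin versus Control 56.2% were lower, beside 28.6% of all genes. At 48 h the shares of all genes were 16.4% lower and 18.0% higher. The random block left 0, 0 and 4 called lower (all genes 5.12%, 10.0% and 11.6%), the last being Hnrnpa2b1, Hnrnpc, Hnrnpdl and Hnrnpl. It left Hnrnpa3 higher at 96 h and after selection. That the family differs from the others in timing was not tested.

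Hnrnpdl, which encodes a relative of the AU-rich element binder hnRNP D, had the largest fall of the family. It ran from 0.22 to 0.98 in Control (median 0.68), 0.11, 0.26, 0.32, 0.46 and 0.52 in RA48, from -0.52 to 0.28 in RA96 (median -0.13) and from -0.81 to -0.22 in Puromycin (median -0.60). Puromycin arrays were all below 0 and below every Control array. Its change was -0.30 ± 0.18 (adjusted p = 0.252) at 48 h, -0.76 ± 0.17 (adjusted p = 0.001) at 96 h and -1.20 ± 0.17 (adjusted p = 5.08e-06) after selection, -1.06 in the first array set and -1.35 in the second. Hnrnpc, which coats uridine tracts in introns, fell by 0.75 ± 0.18 (adjusted p = 0.00152) after selection. Hnrnpa1, a repressor of exon inclusion with many processed copies in the genome, was called only then (-0.55 ± 0.17 (adjusted p = 0.0101)).

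Hnrnpa2b1, an RNA transport and splicing factor, ran from -0.046 to 0.45 in Control (median 0.17), -0.34, -0.013, -0.0040, 0 and 0.10 in RA48, from -1.16 to -0.031 in RA96 (median -0.34) and from -1.51 to 0.060 in Puromycin (median -0.77). The groups overlapped, with 1 RA48 array (replicate 2) well below the rest of its group. It fell by 0.97 ± 0.26 (adjusted p = 0.00456) after selection, -1.51 in the first array set and -0.43 in the second. Its call in RA96 versus Control (-0.70 ± 0.26 (adjusted p = 0.0348)) was not stable: without any 1 of Control replicates 4, 5 and 6 or RA96 replicates 1, 3 and 4 its adjusted p rose to between 0.0507 and 0.0897.

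Hnrnpl binds CA repeats and represses or activates exons by position. Its ratio ran from 0.74 to 0.95 in Control (median 0.78), 0.56, 0.63, 0.83, 0.90 and 0.92 in RA48, from -0.16 to 0.40 in RA96 (median 0.0060) and from -0.88 to 0.78 in Puromycin (median -0.042). RA48 arrays overlapped the Control range, and every RA96 array was below both. Hnrnpl changed by -0.74 ± 0.24 (adjusted p = 0.014) in RA96 versus Control and -0.85 ± 0.24 (adjusted p = 0.00539) in Puromycin versus Control. After selection the array sets parted: from RA96 to Puromycin the change was -0.63 in the first array set (adjusted p = 0.004) and 0.50 in the second (adjusted p = 0.0147), and the 2 sets together gave -0.11 ± 0.24 (adjusted p = 0.886). Its call in RA96 versus RA48 (-0.71 ± 0.25 (adjusted p = 0.0493)) lay at the threshold, and without any 1 of Control replicates 1, 2, 3, 4, 5 and 6, RA48 replicates 1, 2, 3 and 4 or RA96 replicates 1, 2, 3, 4 and 6 its adjusted p rose to between 0.053 and 0.111. Its paralogue Hnrnpll, known from T cell splicing, changed by -0.32 ± 0.13 (adjusted p = 0.0395) after selection, where without any 1 of Control replicates 1, 2 and 5 or Puromycin replicates 1 and 5 its adjusted p rose to between 0.0636 and 0.108.

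Hnrnpa3, a close relative of Hnrnpa1 and Hnrnpa2b1, went up while both of these were called lower after selection. It ran from -0.48 to 0.21 in Control (median -0.15), -0.35, -0.15, -0.12, 0.012 and 0.062 in RA48, from 0.31 to 0.60 in RA96 (median 0.47) and from 0.54 to 0.84 in Puromycin (median 0.64). Control and RA48 arrays overlapped, and all RA96 and Puromycin arrays stood above both. Hnrnpa3 rose by 0.58 ± 0.11 (adjusted p = 0.000553) from 48 to 96 h and was 0.80 ± 0.10 (adjusted p = 9.92e-07) above Control after selection, a factor of 1.74, 0.97 in the first array set and 0.62 in the second. Hnrnpr, a partner of SMN, peaked at 48 h: it rose by 0.37 ± 0.10 (adjusted p = 0.00822), with no RA48 array inside the Control range, and fell by 0.32 ± 0.10 (adjusted p = 0.0321) by 96 h, though without any 1 of RA48 replicates 1, 2 and 3 or RA96 replicates 2 and 5 its adjusted p rose to between 0.0645 and 0.083. Hnrnpul2, linked to DNA end processing, rose by 0.28 ± 0.082 (adjusted p = 0.0145) at 48 h, again without overlap, and was at -0.00041 ± 0.079 (adjusted p = 0.997) after selection. Hnrnph1, which binds G runs, was higher at 96 h by 0.52 ± 0.20 (adjusted p = 0.0361), but without any 1 of Control replicates 1, 2 and 3 or RA96 replicates 4, 5 and 6 its adjusted p rose to between 0.0528 and 0.0942.

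The DEAD-box helicases held the largest falls at 48 h. Of 26 Ddx genes 10 were called lower and none higher at 48 h (1 higher at an unadjusted p under 0.05; median -0.29), 13 lower and 1 higher in RA96 versus Control (median -0.36), and 11 lower and 2 higher in Puromycin versus Control (median -0.31). Handled with the random block, 5, 7 and 6 were lower. For this family and the role groups below, the shares of all genes called lower were 16.4%, 27.6% and 28.6%. Those called higher were 18.0%, 23.9% and 24.6%, and 5.12%, 10.0% and 11.6% were lower with the random block. Grouped by known role, 7 of 13 helicases of ribosome assembly were called lower at 48 h (Ddx10, Ddx18, Ddx21, Ddx27, Ddx31, Ddx47 and Ddx52; median -0.41), 8 in RA96 and 5 in Puromycin, each against Control, and the random block left 3, 4 and 3. Of 6 helicases of splicing and snRNP assembly 3, 4 and 5 were lower (medians -0.49, -0.57 and -0.76), and 2, 2 and 2 with the random block. The 3 helicases of export, translation and decay, Ddx3x, Ddx6 and Ddx19b, were called in no comparison (Ddx6 0.28 ± 0.21 (adjusted p = 0.303) in RA96 versus Control).

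Ddx18, a nucleolar helicase of the large ribosomal subunit pathway, ran from 1.62 to 2.45 in Control (median 2.16), 0.48, 0.65, 0.85, 1.17 and 1.32 in RA48, from 0.59 to 1.28 in RA96 (median 0.68) and from 0.71 to 1.32 in Puromycin (median 0.98). Control stood apart from all other arrays. It fell by 1.18 ± 0.19 (adjusted p = 5.32e-05) at 48 h, was -1.24 ± 0.18 (adjusted p = 1e-05) at 96 h and -1.07 ± 0.18 (adjusted p = 5.12e-05) after selection, factors of 2.27, 2.36 and 2.11. Inside the array sets its change at 48 h was -1.26 in the first array set and -1.22 in the second. Ddx10 and Ddx31, both nucleolar, fell by 0.77 ± 0.10 (adjusted p = 4.54e-06) and 0.77 ± 0.19 (adjusted p = 0.00395) at 48 h.

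Ddx21, which works in ribosomal RNA transcription and processing, fell and then partly returned. It ran from 2.32 to 2.64 in Control (median 2.43), 1.30, 1.32, 1.42, 1.73 and 1.74 in RA48, from 1.82 to 2.00 in RA96 (median 1.95) and from 1.95 to 2.21 in Puromycin (median 2.04). The ranges of RA48, RA96 and Control did not meet. Ddx21 fell by 0.98 ± 0.091 (adjusted p = 2.63e-08) at 48 h, rose by 0.42 ± 0.091 (adjusted p = 0.00314) from 48 to 96 h and was -0.41 ± 0.087 (adjusted p = 0.000591) against Control after selection. The rise was 0.63 in the first array set (adjusted p = 0.000374) and 0.15 in the second (adjusted p = 0.204). Of its 2 probes, 1 gave -0.68 (adjusted p = 1.69e-05) and the other -0.14 (adjusted p = 0.362) in Puromycin versus Control. Its paralogue Ddx50 was called only after selection, higher by 0.28 ± 0.099 (adjusted p = 0.0227), although without any 1 of Control replicates 2 and 3 its adjusted p rose to between 0.0515 and 0.0641. The 2 probes of Ddx50 gave 0.43 (adjusted p = 0.0267) and 0.14 (adjusted p = 0.158) in Puromycin versus Control. Ddx52 was the single member called on selection: it ran from 1.82 to 2.15 in Control (median 1.98), 1.36, 1.57, 1.58, 1.65 and 1.71 in RA48, from 1.53 to 1.96 in RA96 (median 1.63) and from 1.90 to 2.39 in Puromycin (median 2.21) and rose by 0.46 ± 0.11 (adjusted p = 0.0105) from RA96 to Puromycin, 0.43 in the first array set and 0.37 in the second, with slight overlap between the groups. That returned it to 0.19 ± 0.11 (adjusted p = 0.151) against Control, after a fall of 0.41 ± 0.11 (adjusted p = 0.00802) at 48 h. From RA96 to Puromycin the 3 probes of Ddx52 gave 0.60 (adjusted p = 0.021), 0.62 (adjusted p = 0.00851) and 0.16 (adjusted p = 0.511).

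Among splicing helicases, Ddx20, or Gemin3 of the SMN complex, ran from 0.62 to 1.42 in Control (median 1.14), 0.080, 0.10, 0.17, 0.32 and 0.40 in RA48, from 0.13 to 0.54 in RA96 (median 0.26) and from 0.23 to 0.32 in Puromycin (median 0.24). Every Control array was above all others, and the fall was 0.86 ± 0.13 (adjusted p = 1.55e-05) at 48 h and 0.82 ± 0.12 (adjusted p = 8.55e-06) after selection. Ddx39a, a paralogue of the export and splicing helicase UAP56, fell by 0.81 ± 0.085 (adjusted p = 1.62e-07) at 48 h and was -0.83 ± 0.081 (adjusted p = 1.93e-08) against Control after selection. Its further fall from 48 to 96 h (-0.25 ± 0.085 (adjusted p = 0.0426)) was 0.050 in the first array set and -0.50 in the second, and without any 1 of RA48 replicates 2, 3, 4 and 5 or RA96 replicates 2, 4, 5 and 6 its adjusted p rose to between 0.055 and 0.102. Ddx46, the mammalian Prp5 that proofreads branch points, ran from 0.48 to 3.02 in Control (median 0.86), -0.28, -0.014, 0.12, 0.23 and 0.33 in RA48, from 0.0039 to 0.47 in RA96 (median 0.29) and from 0.11 to 0.41 in Puromycin (median 0.30). All Control arrays were above all others, but the size depended on the array set: at 48 h the change was -0.45 in the first array set (adjusted p = 0.00631) and -2.06 in the second (adjusted p = 0.00613), and together -1.22 ± 0.30 (adjusted p = 0.00373). Ddx42, a helicase bound to SF3B, was called lower than Control in both of the last groups (-0.26 ± 0.086 (adjusted p = 0.0169) in the latter). Ddx41 was called in no comparison over all arrays and went opposite ways in the sets after selection, -0.28 in the first array set (adjusted p = 0.039) and 0.78 in the second (adjusted p = 0.00256).

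Of the germ cell helicases, Ddx25 fell between 48 and 96 h. It ran from 1.04 to 1.45 in Control (median 1.23), 0.83, 0.91, 1.02, 1.03 and 1.08 in RA48, from 0.085 to 0.70 in RA96 (median 0.39) and from 0.41 to 0.83 in Puromycin (median 0.63). RA48 arrays overlapped Control, and RA96 arrays lay below both. The fall from 48 to 96 h was 0.60 ± 0.11 (adjusted p = 0.000685), and -0.85 ± 0.11 (adjusted p = 9.91e-07) separated RA96 from Control. Ddx4, the Vasa helicase, was at 0.35 ± 0.28 in Control and 0.46 ± 0.32 in Puromycin (mean ± SD, n = 6 each) and was not called. Ddx58, which encodes the viral RNA sensor RIG-I, was among the few that rose: it ran from -0.17 to 0.44 in Control (median 0.076), 0.18, 0.23, 0.34, 0.40 and 0.42 in RA48, from 0.050 to 0.65 in RA96 (median 0.45) and from 0.35 to 0.63 in Puromycin (median 0.47), overlapping between groups, and was 0.40 ± 0.11 (adjusted p = 0.00397) after selection, 0.37 in the first array set and 0.44 in the second. Its call at 96 h (0.29 ± 0.11 (adjusted p = 0.03)) was lost in part of the repeats, as without any 1 of Control replicates 2 and 5 or RA96 replicates 1, 2, 3 and 5 its adjusted p rose to between 0.0559 and 0.0789. Ddx60, a related sensor, and Ddx24, Ddx51, Ddx54 and Ddx55 of ribosome assembly were called in none.

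The step from 48 to 96 h depended on how the array sets were handled. From RA48 to RA96, 6 members were called lower and 2 higher, while 11.6% and 10.8% of all genes were (22.4% in all). The member median was -0.013, beside -0.030 for all genes. The 6 lower were Hnrnpl, Hnrnpr, Lsm10, Lsm14b, Ddx25 and Ddx39a, and the 2 higher Hnrnpa3 and Ddx21. With the array set as a fixed block 21 were lower and 5 higher (all genes 20.3% and 15.7%). The first array set alone gave 16 and 12 (22.4% and 18.0%), and the second 8 and 0 (8.14% and 7.88%). Without RA48 replicate 2, RA48 replicate 3 or RA96 replicate 2 the total of 8 became 5. On selection, from RA96 to Puromycin, 0 members were called lower and 1, Ddx52, higher, where 3.12% and 4.7% of all genes were called (7.82% in all); at an unadjusted p under 0.05 6 were lower and 16 changed in all. The member median was 0.012 there. With the random block no member was called in either step, where 2.29% and 0.173% of genes were (6 and 1 at an unadjusted p under 0.05).

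**Figure D4:**
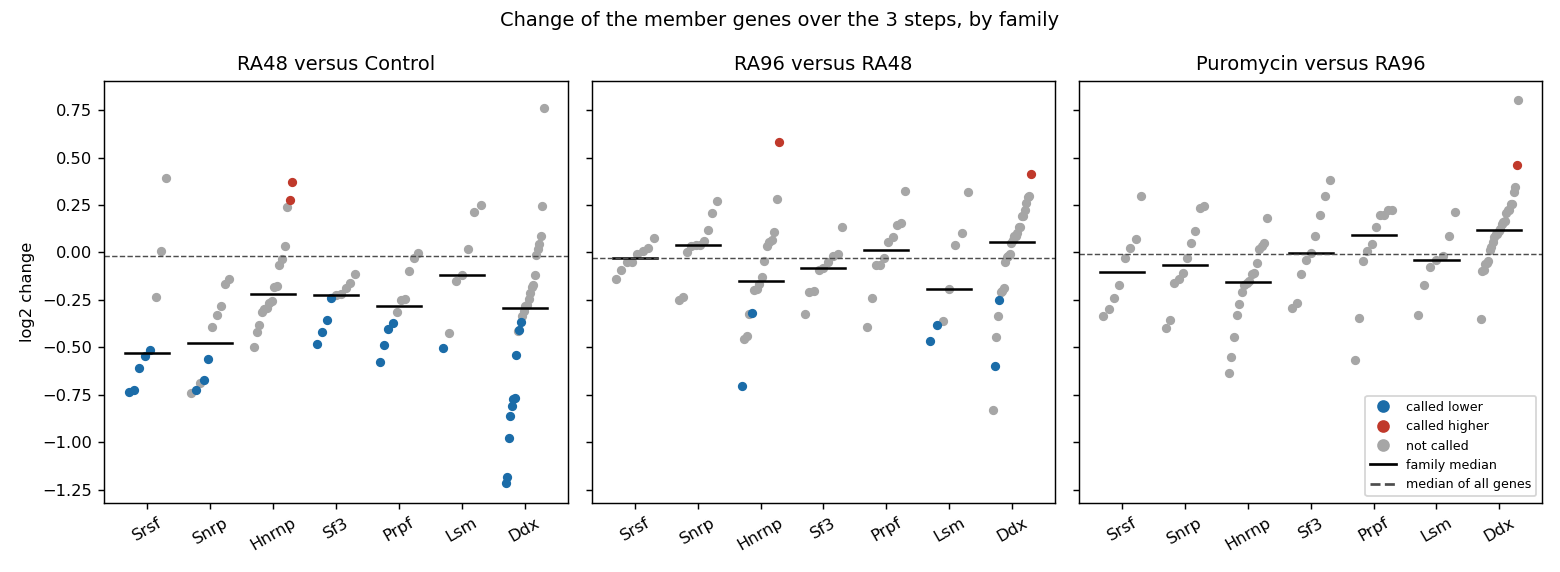
Log2 change of each member (y axis) by family (x axis) for the steps Control to RA48, RA48 to RA96 and RA96 to Puromycin; colours mark members called higher or lower, short bars give the family median and the dashed line the median of all genes. Every family median lies below 0 in the first panel, and in the other panels the family medians lie between -0.19 and 0.12.

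Several members were read by more than 1 probe, and these gave a check inside the array. For the 25 members with several probes, the probes had 1 sign in 22 for the step to RA48, 14 for the step to RA96 and 12 for selection. Against Control the probes had 1 sign in 20 of the 25 for RA96 and in 20 for Puromycin. No member had probes called in opposite directions in any of the 5. Where at least 1 probe was called, all probes were called 1 way in 6 of 16, 2 of 6, 0 of 2, 7 of 18 and 8 of 18 members, in the order RA48 versus Control, RA96 versus RA48, Puromycin versus RA96, RA96 versus Control and Puromycin versus Control. In 16 cases, over 8 members, 1 probe was called where the mean of the probes was not, among them Prpf31 (1 probe lower in all 3 later groups, -0.60, adjusted p = 0.00164 at 96 h), Srsf11 (-0.60, adjusted p = 9.74e-06 at 48 h), Hnrnpab (-0.34, adjusted p = 0.00815 at 48 h) and Ddx4 (0.70, adjusted p = 0.00254 from 48 to 96 h). The 2 probes of Ddx46 gave -0.87 and -1.56 at 48 h. Probe sequences were not used here, so cross-hybridisation among near-identical family members or their processed copies was not assessed.

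Some further calls counted above were lost when 1 array was left out, many of them for any 1 of several arrays. For Snrpg in RA96 versus Control (-0.36 ± 0.14 (adjusted p = 0.0462)), without any 1 of Control replicates 1, 4, 5 and 6, RA48 replicate 3, RA96 replicates 1 and 3 or Puromycin replicates 1, 2, 3, 4, 5 and 6 its adjusted p rose to between 0.0501 and 0.127. For Ddx23 in Puromycin versus Control (-0.71 ± 0.29 (adjusted p = 0.0467)), without any 1 of Control replicates 1, 3, 4 and 5, RA48 replicates 1 and 5 or Puromycin replicates 1, 2, 3 and 4 its adjusted p rose to between 0.0513 and 0.114. The Ddx23 mean went from 2.04 in Control to 0.84 in Puromycin in the first array set, and from 1.80 to 1.58 in the second. For Ddx52 in RA96 versus Control (-0.27 ± 0.11 (adjusted p = 0.0404)), without any 1 of Control replicates 1, 4, 5 and 6 or RA96 replicates 2, 4, 5 and 6 its adjusted p rose to between 0.0523 and 0.093, and the array sets gave 0.037 in the first array set and -0.46 in the second. These are calls close to the threshold. Among the SF3B subunits, for Sf3b2 in Puromycin versus Control (-0.60 ± 0.22 (adjusted p = 0.0336)), without any 1 of Control replicates 4, 5 and 6 or Puromycin replicates 1, 2 and 3 its adjusted p rose to between 0.0611 and 0.0808; for Sf3b5 in RA96 versus Control (-0.37 ± 0.14 (adjusted p = 0.0349)), without any 1 of Control replicates 4, 5 and 6 or RA96 replicates 1 and 3 its adjusted p rose to between 0.0562 and 0.101. In Puromycin versus Control the Sf3b5 change was -0.37 ± 0.14 (adjusted p = 0.0341), and without any 1 of Control replicates 4, 5 and 6 or Puromycin replicates 1, 2 and 3 its adjusted p rose to between 0.0557 and 0.0866. For the G-run binder Hnrnpf in Puromycin versus Control (-0.88 ± 0.33 (adjusted p = 0.0325)), without any 1 of Control replicates 4, 5 and 6 or Puromycin replicates 1, 2 and 3 its adjusted p rose to between 0.068 and 0.0837. Hnrnpf, Hnrnph1 and Hnrnph2 are close relatives. For Hnrnph2 in RA96 versus Control (-0.47 ± 0.16 (adjusted p = 0.0181)), without RA96 replicate 3 its adjusted p rose to 0.0502. For Hnrnpll in RA96 versus Control (-0.37 ± 0.13 (adjusted p = 0.0187)), without any 1 of Control replicate 1 or RA96 replicate 2 its adjusted p rose to between 0.055 and 0.0569. For the tri-snRNP bridge Prpf6 in RA96 versus Control (-0.25 ± 0.090 (adjusted p = 0.0288)), without any 1 of Control replicates 3 and 5 or RA96 replicates 1, 2 and 3 its adjusted p rose to between 0.0568 and 0.0787. The nucleolar Ddx47 was close to the threshold in both retinoic acid groups. For Ddx47 in RA48 versus Control (-0.54 ± 0.17 (adjusted p = 0.0179)), without RA48 replicate 5 its adjusted p rose to 0.0664. For Ddx47 in RA96 versus Control (-0.47 ± 0.16 (adjusted p = 0.0178)), without Control replicate 1 its adjusted p rose to 0.0522.

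Other genes of the core spliceosome, SMN complex and exon junction, listed by function, were called lower far more often than higher. Of 67 listed core spliceosome, SMN complex and exon junction genes 49 were measured, and 21 were called lower and 0 higher at 48 h, 29 lower and 1 higher in RA96 versus Control, and 29 lower and 1 higher in Puromycin versus Control (medians -0.30, -0.35 and -0.33). All genes had 16.4%, 27.6% and 28.6% called lower. With the random block counts were 4, 11 and 12 (all genes 5.12%, 10.0% and 11.6%). Gemin6 and Gemin5, which help the SMN complex load Sm rings, were the largest falls: Gemin6 changed by -1.14 ± 0.11 (adjusted p = 6.34e-08) and Gemin5 by -0.99 ± 0.099 (adjusted p = 7.04e-08) at 48 h, both without overlap with Control. Gemin6 was -1.14 in the first array set and -1.14 in the second. Slu7, a factor of the second catalytic step, was the gene called higher (0.33 ± 0.079 (adjusted p = 0.00179) in Puromycin versus Control). From RA48 to RA96 8 of the 49 were lower, with Sart3, which recycles U6, at -0.44 ± 0.14 (adjusted p = 0.0266), but without any 1 of RA48 replicates 1, 2 and 3 or RA96 replicates 2, 5 and 6 its adjusted p rose to between 0.0516 and 0.0788. On selection none of the 49 was called (5 at an unadjusted p under 0.05).

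Tissue-type regulators of splicing and other RNA-binding proteins, 38 of 64 measured, were more mixed, with 6 higher and 10 lower in RA48 versus Control, 5 higher and 16 lower in RA96 versus Control and 6 and 18 in Puromycin versus Control. Of all genes 18.0%, 23.9% and 24.6% were called higher and 16.4%, 27.6% and 28.6% lower. The higher calls of the list lay below those shares. The random block left 1, 3 and 4 higher and 4, 6 and 10 lower. For all genes its shares were 7.35%, 11.5% and 12.9% higher and 5.12%, 10.0% and 11.6% lower. Celf2, a CUG-binding regulator, rose by 0.98 ± 0.18 (adjusted p = 0.000257) at 48 h and by 1.24 ± 0.18 (adjusted p = 6.46e-05) more by 96 h, without overlap at either step. Mbnl1, muscleblind, known for opposing CELF proteins in muscle, rose by 0.60 ± 0.15 (adjusted p = 0.00842) from 48 to 96 h and by 0.73 ± 0.14 (adjusted p = 0.00309) on selection, and stood 1.72 ± 0.14 above Control at the end. Rbfox2 rose by 0.95 ± 0.31 (adjusted p = 0.0248) at 48 h, but without any 1 of Control replicate 3 or RA48 replicates 4 and 5 its adjusted p rose to between 0.054 and 0.0616. Falling genes included Ptbp2, a neural relative of the polypyrimidine tract binder (-1.10 ± 0.088 (adjusted p = 2.07e-09) at 48 h), and Rbmx, related to hnRNP G (-1.46 ± 0.21 (adjusted p = 7.17e-06) in Puromycin versus Control). Ptbp1 itself, a known repressor of smooth muscle exons, was not called (-0.39 ± 0.33 (adjusted p = 0.349)).

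**Figure D5:**
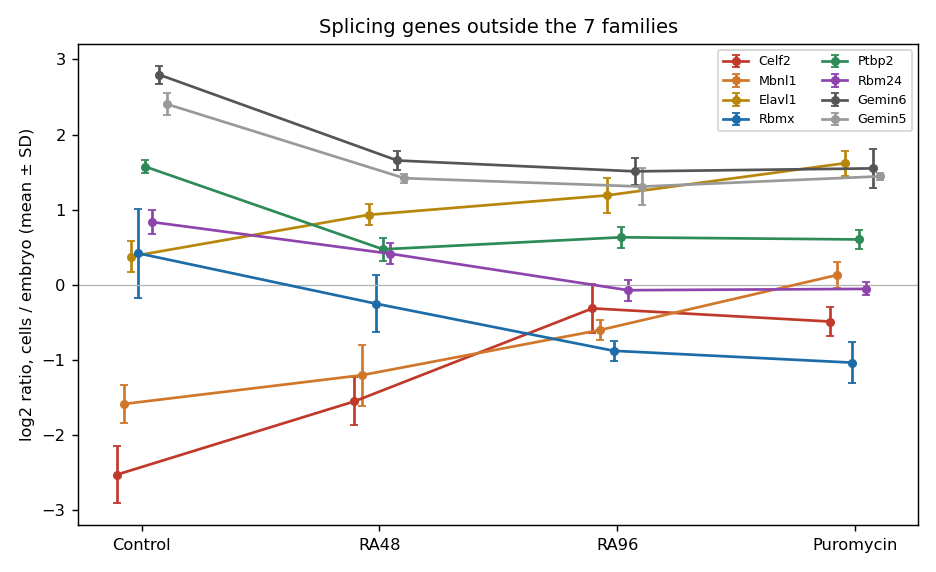
Mean log2 ratio ± SD (y axis) by group (x axis) for Celf2, Mbnl1, Elavl1, Rbmx, Ptbp2, Rbm24, Gemin6 and Gemin5, chosen after their values were seen. The mean of Celf2 is higher in RA48 than in Control and higher again in RA96, Mbnl1 is highest in Puromycin, and Gemin5, Gemin6 and Ptbp2 drop at 48 h and stay down.

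SR protein kinases and importers, 8 of 10 measured, gave 1 higher and 1 lower in RA48, 4 and 1 in RA96, and 1 and 1 in Puromycin, each against Control. The shares of all genes were 18.0%, 23.9% and 24.6% higher and 16.4%, 27.6% and 28.6% lower. Over all arrays, counts of 1 in this list and in the helicase list that follows lay below these shares. Of the 4 higher at 96 h, Clk1 and Clk3 were at 0.44 ± 0.17 (adjusted p = 0.0386) and 0.30 ± 0.10 (adjusted p = 0.0207); for Clk1 without any 1 of Control replicates 1, 2 and 3 or RA96 replicates 2, 4, 5 and 6 its adjusted p rose to between 0.0567 and 0.0973, and for Clk3 without any 1 of Control replicate 3 or RA96 replicate 6 its adjusted p rose to between 0.0528 and 0.0582. Tnpo3, which imports SR proteins into the nucleus, fell by 0.60 ± 0.11 (adjusted p = 0.000196) in Puromycin versus Control, and Srpk3, a muscle SR kinase, rose by 0.53 ± 0.12 (adjusted p = 0.00114) by 96 h. This list shares Prpf4b with the members. The DEAH and eIF4A helicases, 7 of 13 measured, gave 1 lower and 1 higher in RA48 versus Control, 5 lower and none higher in RA96 versus Control (1 at an unadjusted p under 0.05 in that direction) and 1 lower in Puromycin versus Control. Dhx9 was at -0.95 ± 0.22 (adjusted p = 0.00139) at 96 h. Leaving out 1 array took the count of 5 to between 3 and 5, and the random block left 1 (all genes 10.0%).

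Of 6 measured proliferation markers (7 listed), Top2a, Mcm2 and Mcm5 were called lower in each of the 3 comparisons with Control. At 48 h the calls of Mcm2 (-0.28 ± 0.10 (adjusted p = 0.0451)) and Mcm5 (-0.31 ± 0.11 (adjusted p = 0.0425)) lay close to the threshold. For Mcm2 without any 1 of Control replicates 1, 2, 3, 4, 5 and 6, RA48 replicates 1, 2, 3, 4 and 5 or RA96 replicate 2 its adjusted p rose to between 0.0505 and 0.0951. For Mcm5 without any 1 of Control replicates 1, 2 and 5 or RA48 replicates 1, 2, 3, 4 and 5 its adjusted p rose to between 0.0527 and 0.104. Leaving out 1 array thus left between 1 and 3 markers called. Their mean ratio lay between 0.76 and 1.26 in Control, between 0.59 and 1.03 in RA48, between 0.075 and 0.75 in RA96 and between 0.20 and 0.67 in Puromycin. Mcm5, a subunit of the replicative helicase, fell by 1.03 ± 0.10 (adjusted p = 4.72e-08) at 96 h and Top2a by 1.07 ± 0.13 (adjusted p = 7.62e-07), whereas Mki67 was not called (-0.28 ± 0.31 (adjusted p = 0.498)). Neuronal markers (8 of 10 measured) had a mean between -1.04 and -0.51 in Control, between -0.76 and -0.45 in RA48, between -0.47 and -0.19 in RA96 and between -0.86 and -0.39 in Puromycin, where the RA96 range alone did not meet that of Control. Extraembryonic endoderm markers (5 of 6 measured) had a mean between -1.12 and -0.67 in Control, between -0.30 and 0.0021 in RA48, between -0.22 and -0.023 in RA96 and between -0.35 and -0.24 in Puromycin, and those of cardiac and skeletal muscle (5 of 6 measured) between -2.09 and -1.03 in Control and between -2.21 and -0.81 over all groups, with none called against Control (at most 1 at an unadjusted p under 0.05). At 48 h 4 endoderm markers were called higher and Top2a lower, and their part in the result was not tested.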

How the data were processed

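RNA of A404 cells and of pooled mouse embryos was hybridised to 2-colour Agilent oligonucleotide arrays without a dye swap, per the labels' protocols. Slides were read on an Agilent scanner G2565AA and the spots were quantified by Agilent Feature Extraction, per the submitters' processing notes. The deposited table holds 1 log ratio per probe and array. Its base, centring and direction are not stated: the deposited values were read as log10 from their range and divided by 0.301 (log10 of 2), and the direction was taken from the dyes, Cy5 cell over Cy3 embryo. Folds rest on that reading. Without spot intensities no detection limit is given, and the number of arrays limits the precision.

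Of 21446 probes 1166 control-like ones (5.44%) were left out, 11100 carried 1 gene symbol, 442 several and 8738 none. Symbols came from the platform annotation, and all 86 members matched RefSeq with the same symbol. Probes of a symbol were averaged on each array, giving 17863 rows of which 8683 are genes. No value was missing. A single limma model (version 3.58.1, with statmod 1.5.0 in R 4.3.3) held the means of all groups, with empirical Bayes moderation, and p-values were adjusted by Benjamini-Hochberg over all rows. A gene is called at an adjusted p under 0.05. Errors are SE for changes and SD for levels. The fit was run on simulated data with independent noise on each array and no array sets. That run cannot tell how the sets affect the errors of the calls. Tables, promoters and figures used Python 3.11.15, numpy 2.4.6, pandas 2.3.3 and matplotlib 3.10.9.

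The members, gene lists and roles were chosen with earlier results of these data known. Named throughout are 21 members of general interest, the 6 largest called rises and falls per comparison without overlap between groups, and the largest called rise and fall per family after selection; other members and the genes of the role groups and figures were named after their values were seen. Genes of other lists are, unless not called, among the 2 largest each way per comparison. The array sets were read from the first principal component. Other settings were other normalization (median centring, quantile), single probes, only the groups compared, array weights, trended and robust variance, control-like rows kept, a threshold of 0.01, the replicate number as a block, the sets separately, the sets as a block, a random block of group by set, and leaving out each array in turn.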

Additional observations from a re-analysis of the deposited data

Results flagged for a closer look

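Of 160 groups of arrays of named members, 3 (1.88%) held an array set apart from the rest of its group by Dixon's criterion, where chance gives about 1 in 20. Hnrnpa2b1 was lowest on RA48 replicate 2, at -0.336, with the nearest array at -0.0129. Hnrnpl was highest on Control replicate 1, at 0.946, with the nearest at 0.794. Snrpb was highest on Puromycin replicate 4, at 2.09, with the nearest at 1.88. Calls of these genes that were lost when 1 array was left out are given with them above.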

How the results depend on the processing

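Counts are of called members, with the share of all genes called at the same setting in brackets where the text above does not give it. Leaving out 1 array gave 26 to 34 in RA48 versus Control, 5 to 9 in RA96 versus RA48 and 1 to 1 on selection. It gave 39 to 48 in RA96 versus Control, 39 to 47 in Puromycin versus Control and 46 to 56 in the F test. The array set as a block gave 54, 26 and 12 in the 3 successive steps (49.4%, 36.0% and 17.5%) and 77 in the F test (79.3%), so that after 48 h the members' share lay below that of all genes. The first array set alone gave 48, 28 and 10 in these steps (48.0%, 40.5% and 13.3%), and the second 8 in the last (11.7%). The random block gave 7, 0 and 0 in the steps (12.5%, 2.29% and 0.173%), 14 in RA96 versus Control (21.5%), 20 in Puromycin versus Control (24.5%) and 16 in the F test (23.4%). Array weights, whose estimation stopped before convergence, gave 59, 41 and 15 in the steps (52.9%, 59.0% and 19.5%) and 80 in the F test (83.6%). A threshold of 0.01 gave 4 in RA96 versus RA48 (11.0%), 0 on selection (3.89%) and 31 in RA96 versus Control (39.4%). For Puromycin versus RA96, median centring, quantile normalization and single probes each gave 2, and the 2 groups alone 0.

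Of 33 pairs of samples with the same replicate number, 30 correlated above 0.1 (lowest -0.455, highest 0.675). A sample's own number was its best match in 18 of 66 cases, for which no chance level is given. Replicate number nearly coincides with the array set, so this check cannot tell pairing by number from the sets. The pairs not above 0.1 were those of RA96 replicate 2 (-0.111, -0.455 and -0.379). That array lies in the second array set, and the other arrays of its number lie in the first. With the replicate block 13 members were called in RA96 versus RA48 (29.5%) and 11 on selection, that is Puromycin versus RA96 (13.9%), and the other counts stayed within 1.5 times.

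All 175 medians of members and comparisons under these settings moved by less than the spread of the member median between arrays, an SD of 0.15. That SD takes in the difference between the array sets and is a wide limit. The median in RA48 versus Control ran from -0.41 to -0.16 over the settings. In direction, 4 named values were counted as reversed. Ddx39a in RA96 versus RA48 was 0.050 in the first array set. Hnrnpu there was -0.27 with the set block, against 0.034 in the report's fit. Snrpf there was -0.43 in the second array set, against 0.058. Hnrnpl in Puromycin versus RA96 was 0.50 in the second array set, against -0.11. The causes were not tested. Of the other named values, 2347 kept the call, 141 gained the call and 108 lost it, array removal aside. Changes of sign that were not counted as reversals occurred among them. The Srsf5 mean, for example, went from -0.65 in Control to -0.31 in RA48 in the first array set. In the second set it went from 0.32 to 0.069. With no intensities used here, signal over background sets no limit that can be given.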
